A study of Rattus norvegicus with 6 samples.

Results

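The genes described here encode 10 glycoproteins of the extracellular matrix, chosen by name. Fn1, Tnc, Postn, Thbs1, Thbs2, Comp, Sparc and Spp1 encode adhesive or matricellular proteins, and Eln and Fbn1 encode the main proteins of elastic fibres and microfibrils. All 10 were present among the 20264 rows of the combined count table. RNA was sequenced from primary nucleus pulposus cells (NPCs), the cells of the gel-like core of the intervertebral disc, isolated from the tails of wild type male Sprague-Dawley rats. The TBHP group (n = 3) received tert-butyl hydroperoxide, an oxidant that induces senescence in culture, and the TBHP+FGF21 group (n = 3) received the same oxidant together with recombinant FGF21, a hormone of the fibroblast growth factor family. There was no untreated group, and the dose and duration used for sequencing are not given in the sources used here. The libraries are called by their titles, T1, T2 and T3 for TBHP and F1, F2 and F3 for TBHP+FGF21. The treatment label reads FGF21 for F1 but FGF22 for F2 and FGF23 for F3, whereas the design text gives FGF21 for all 3, and grouping followed the titles. The replicates are described as biological, without saying which animals they came from, so the p-values measure the spread between these libraries.

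Matricellular proteins are secreted glycoproteins that bind both the structural matrix and receptors on the cell surface. They are abundant in development and wound repair, and they tune adhesion, collagen fibril formation and growth factor release more than they bear load. Elastic fibres are made of an elastin core laid on fibrillin microfibrils, which also hold latent TGF-beta. In the disc, such proteins lie around the cells and between the collagen lamellae, and fibronectin and its fragments accumulate in degenerated tissue.

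The libraries held between 18277732 and 22426190 counts. The 0 of a gene without reads allows at most 3 counts, or 0.134 to 0.164 CPM (counts scaled to a common library size), and this limit covers counting error only. The libraries differed within both groups. By chi-square per gene, F2 was at 7.33, 9.54 and 8.52 from T1, T2 and T3, and at 22.9 and 44.6 from F1 and F3, so it was nearer to the TBHP libraries than to its own group. F1 and F3 were at 23.0 from each other, and F3 was at 38.4 to 58.7 from the TBHP libraries. F1 was at 30.9 and 38.2 from T1 and T2 but at 15.4 from T3, nearer than to F2 or F3. T3 was at 21.2 and 23.4 from T1 and T2, which were at 6.97 from each other. It was thus nearer to F1 and F2 than to its own group. Results are given without a library where it decides them. The defining notochordal markers Tbxt, Noto and Shh had 0 counts in all libraries, whereas Acan, which encodes the disc proteoglycan aggrecan, had a mean of 2708 ± 218 CPM (SD, n = 3) under TBHP. Ptprc, Adgre1, C1qa and C1qb of the macrophages and leukocytes, and Cdh5, Kdr and Tie1 of the endothelium, also had 0 counts throughout. Other markers of these cells had reads. Cd14 and Cd68 of the macrophages and leukocytes had up to 701 and 52 reads in a library. Egfl7, Vwf and Tek of the endothelium had up to 919, 15 and 11. The absence of these cell types was thus not shown.

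Together the 10 genes took 7.02%, 6.80% and 8.26% of all counts in T1, T2 and T3, and 8.07%, 7.66% and 6.76% in F1, F2 and F3. The groups overlapped in this share. Fn1 and Thbs1 alone supplied between 4.50% and 5.98% of each library. By reads, without correction for transcript length, Fn1 ranked 2 and Thbs1 ranked 3 among all genes in each of the 6 libraries. Sparc ranked between 4 and 7, Spp1 between 8 and 13 and Thbs2 between 25 and 35. At the other end, Eln had between 5 and 17 reads per library.

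**Figure D1:**
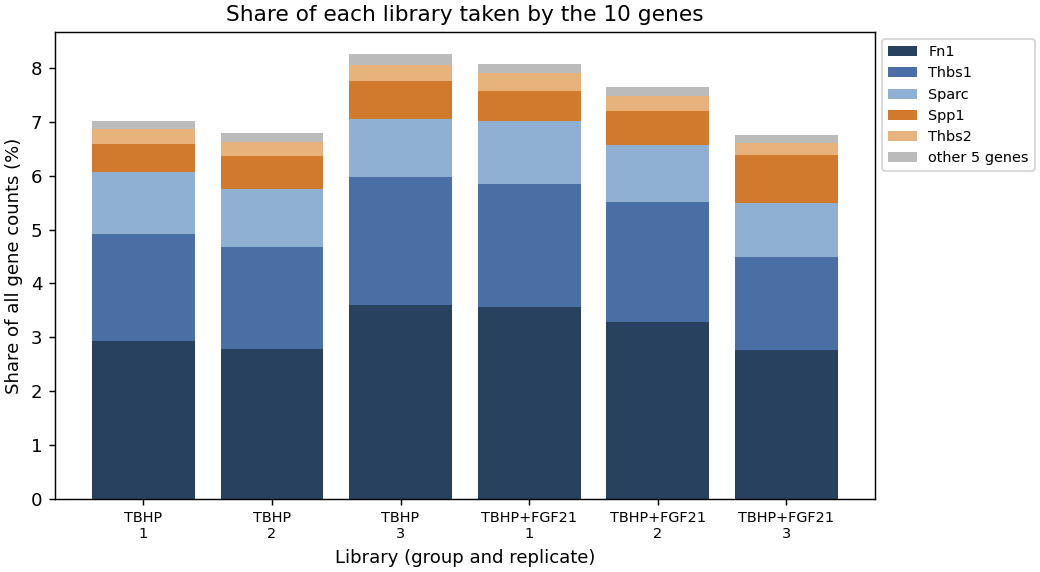
Share of all gene counts (%, vertical axis) taken by the 10 genes in each library (horizontal axis), stacked by gene with the 5 least abundant genes joined in grey. The total lies between 6.76% and 8.26%, and library T3 and library F3 mark the ends of that range.

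To show the DNA in front of some of these genes, the 100 bases before the RefSeq start of Thbs1, Sparc and Comp (build GRCr8) are printed. These windows lie outside the annotated gene, which is why these genes were printed. Thbs1 and Sparc are among the most abundant members and Comp is one of the low ones. The windows of Postn, Tnc, Spp1 and Fbn1 do not lie wholly outside the annotated gene span. For Postn, 30 bases around a TATAAA match are printed, and no bases are printed for Tnc, Spp1 and Fbn1. Each reads 5′ to 3′ on the strand of the gene, and capitals mark matches on either strand to the 4 motifs TATAAA (the TATA box), CCAAT (the CCAAT box), GGGCGG (the GC box) and GGAATG (a TEAD site). The positions are chr3:125510150-125510249 (plus strand) for Thbs1, chr10:40038817-40038916 (minus strand) for Sparc, chr16:19089549-19089648 (minus strand) for Comp and chr2:140678005-140678034 (plus strand) for Postn.
Thbs1: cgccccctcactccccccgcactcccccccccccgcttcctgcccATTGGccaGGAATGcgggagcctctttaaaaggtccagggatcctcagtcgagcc
Sparc: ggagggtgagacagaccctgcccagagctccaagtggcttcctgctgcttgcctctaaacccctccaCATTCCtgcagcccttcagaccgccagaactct
Comp: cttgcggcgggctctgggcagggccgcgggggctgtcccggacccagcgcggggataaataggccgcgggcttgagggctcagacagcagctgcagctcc
Postn: agcccagagctcTATAAAttcagctctcta

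Promoter windows were at hand for 7 of the 10 genes, and the 250 bases before the start were searched on both strands. For Tnc, Postn, Spp1 and Fbn1 these bases do not lie wholly outside the annotated gene. TATAAA, the core of the TATA box, was found for Tnc, Postn and Spp1, and in 13.1% of 27457 promoters. The Postn match starts 44 bases before the start site, while those of Tnc and Spp1 lie 208 and 204 bases before it. CCAAT was found for Thbs1 (34.3% of all promoters), GGGCGG for Thbs1 and Tnc (32.4%), and GGAATG for Thbs1 and Sparc (11.8%). TGANTCA, the AP-1 motif, was found for none of the 7 (6.36% of all), and nor was the CArG box (1.501% of all). The GC content of the 250 bases ranged from 46.8% for Spp1 to 71.2% for Fbn1, against a median of 52% over all promoters. A match describes these letters and was not tested as a site.

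To ask whether FGF21 changed the transcripts of these proteins in oxidant-treated NPCs, the groups were compared by edgeR's quasi-likelihood test on TMM-scaled counts. Of the 10 members, 0 had an adjusted p under 0.05, and 0.00875% of the 11426 genes tested did so, which is 1 gene (Sirt1, and 0 genes with the per-sample counts, where 1082 had an unadjusted p under 0.05). Postn was the single member with an unadjusted p under 0.05, and it was lower in the TBHP+FGF21 group, as were 4.29% of all genes at that limit. Postn was also the single member whose groups did not overlap, and 5.00% of all genes had non-overlapping groups with lower values after FGF21. Both shares correspond to less than 1 gene in a list of this length, so 1 of 10 members is not far from the background. Of the members, 3 had a positive and 7 a negative log2 fold change, with a median of -0.03, against a median of -0.0052 over all genes tested. Levels below are CPM after TMM scaling, and fold changes are log2 values of TBHP+FGF21 against TBHP.

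**Figure D2:**
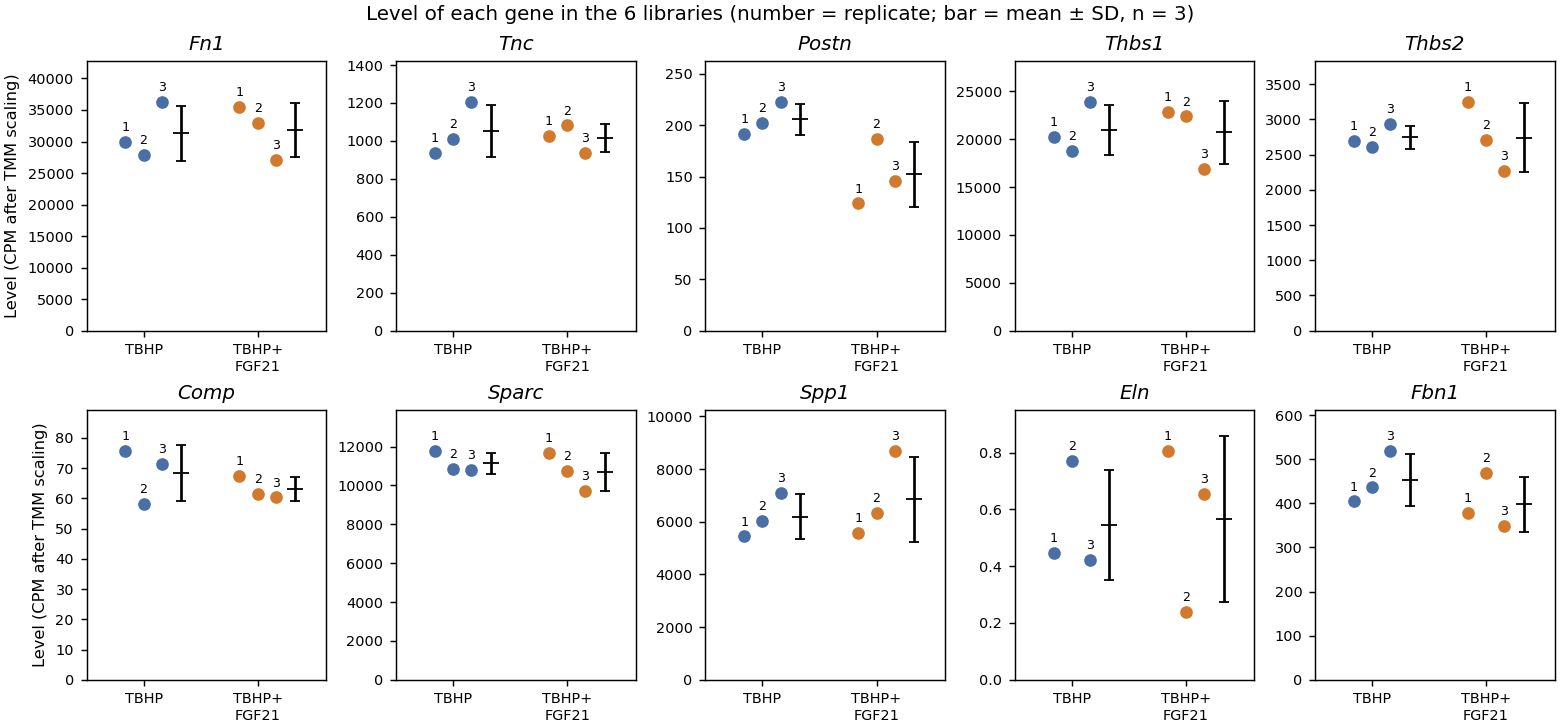
Level in CPM after TMM scaling (vertical axes, each from 0) of each gene in the TBHP libraries (blue) and the TBHP+FGF21 libraries (orange), with the replicate number above each point and mean ± SD (n = 3) as black bars. Postn is the gene whose groups do not overlap, with 191.9 to 222.4 CPM under TBHP and 123.9 to 186.5 CPM under TBHP+FGF21.

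Periostin, the product of Postn, is secreted by fibroblast-like cells of periosteum, ligament and healing wounds, where it binds integrins and takes part in collagen fibril assembly. Its level was 191.9, 202.5 and 222.4 CPM in T1, T2 and T3, and 123.9, 186.5 and 145.9 CPM in F1, F2 and F3. Library F2 was just under the lowest TBHP library, and F1 and F3 were well below it. The group means were thus 205.6 ± 15.5 and 152.1 ± 31.8 CPM (SD, n = 3). In log2, the difference was -0.43 (standard error 0.13, 95% interval -0.73 to -0.14, unadjusted p = 0.00728, adjusted p = 0.553 by edgeR). The exact two-sided permutation test gave p = 0.1, the smallest value that 3 libraries against 3 can give. The direction was downward whichever library was left out, with log2 fold changes between -0.60 and -0.30. Without library F2, the value was -0.60 and the adjusted p was 0.00354 by edgeR, in a fit where 7.50% of all genes passed. When a library other than that one was left out, the adjusted p was 0.298 or more. With only the library labelled FGF21 against the 3 TBHP libraries, the value was -0.73 (adjusted p = 0.00178 by edgeR, in a fit where 2.77% of all genes passed). There the lone library is assumed to vary like the TBHP group.

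Some cell type markers, those of nucleus pulposus cells included, had unadjusted differences in the same fit. Of 7 smooth muscle and pericyte markers, 6 were tested. Acta2, Tagln and Mcam were lower at an unadjusted p under 0.05, as were 4.29% of all genes. Their log2 fold changes were -0.46, -0.47 and -0.46. Cnn1, Myh11 and Des were at -0.33, -0.02 and 0.26, not at that limit. The differences of Acta2, Tagln and Mcam rested on F1 and F3. Acta2 was at 909.9 and 687.0 CPM there, against 1378 CPM in F2 and 1322 to 1439 CPM in the TBHP libraries. Without F2 the values of these 3 genes were -0.76, -0.79 and -0.69 (adjusted p of 0.00115, 0.00102 and 0.00449 by edgeR). In that fit, 7.50% of all genes passed. Without F3 the values were -0.25, -0.25 and -0.29 (adjusted p = 0.973 by edgeR). Rgs5 had 0 counts in the TBHP libraries and in F3, and the summed level of the 7 was 3248 to 3662 CPM under TBHP and 1899 to 3504 CPM under TBHP+FGF21. In the annulus fibrosus and fibroblast list, Scx was lower (-0.39) and Pdgfra higher (0.39) at an unadjusted p under 0.05 among 9 tested genes. Over all genes, 8.92% were under that limit in either direction. Without F2, Scx and Pdgfra were at -0.60 and 0.58 (adjusted p of 0.00546 and 0.00219 by edgeR). Without F3 they were at -0.28 and 0.24 (adjusted p = 0.973 by edgeR). Tnmd was at 0, and the sum of the list was 42841 to 47371 against 32519 to 44797 CPM. Among 9 tested nucleus pulposus markers, 4 log2 fold changes were positive and 5 negative, with a median of -0.01. Pax1, Acan and Sox9 were higher at an unadjusted p under 0.05 (0.54, 0.40 and 0.56), as were 529 of the 11426 genes tested. Without F2 these values were 0.75, 0.54 and 0.75 (adjusted p of 0.000268, 0.0126 and 0.0216 by edgeR). Without F3 they were 0.39, 0.23 and 0.30 (adjusted p = 0.973 by edgeR). Krt8 was at -0.43 with groups that did not overlap, as for 5.00% of all genes in the downward direction. Cd24, Car3 and Col2a1 were at -0.55, -0.34 and -0.26. None of these 4 had an unadjusted p under 0.05. Their levels were low, with at most 91, 48, 57 and 14 reads in any library. The sum of the list, most of it Acan, was 2810 to 3264 against 3183 to 4856 CPM. The summed macrophage and leukocyte markers, most of it Cd14, were at 32.2 to 38.2 against 26.8 to 32.9 CPM. The summed endothelial markers, most of it Egfl7, were at 28.9 to 41.0 against 32.8 to 40.9 CPM. The markers given without F2 or F3 had been picked by their p in a fit that shares these libraries. F2 was also the library of its group nearest to the TBHP libraries, so the values without it are a description. In the fit of all 6 libraries, the adjusted p of every one of these markers was above 0.05. Their part in the Postn difference was not tested, and fewer cells of a type cannot be told apart from less RNA per cell in these bulk libraries.

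Fibronectin, encoded by Fn1, is assembled by cells into fibrils on which other matrix proteins are laid down. Fn1 was at 29884, 27837 and 36232 CPM in T1 to T3 and at 35472, 32913 and 27041 CPM in F1 to F3. Each group held both high and low libraries, and the lowest and highest of the 6 differed by 1.34-fold. The log2 fold change was 0.02 (95% interval -0.27 to 0.32, adjusted p = 0.960 by edgeR), and it was negative in 3 of the 6 fits that each left out 1 library. With 535191 to 773167 reads per library, counting error was at most 0.137% of a value, whereas the coefficient of variation between replicates was 14.0% in the TBHP group and 13.6% in the TBHP+FGF21 group. The precision of this comparison was thus set by the spread between libraries and not by depth.

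Thrombospondin 1, encoded by Thbs1, binds CD47 and can release TGF-beta from its latent complex, and thrombospondin 2, encoded by Thbs2, is known for limiting blood vessel growth and shaping collagen fibrils. Thbs1 was at 20273, 18814 and 23860 CPM in T1 to T3 and at 22829, 22379 and 16911 CPM in F1 to F3. The 6 libraries fell in the same order for Thbs1 as for Fn1, from library T3 down to library F3. Per 100 reads of Fn1, there were between 62.5 and 68.0 reads of Thbs1. Thbs2 was at 2697, 2614 and 2932 CPM in T1 to T3 and at 3244, 2710 and 2269 CPM in F1 to F3, so the TBHP+FGF21 libraries held both its highest and its lowest value. The log2 fold changes were -0.02 for Thbs1 (95% interval -0.32 to 0.28) and -0.0036 for Thbs2 (-0.28 to 0.27), with adjusted p of 0.968 and 0.994 by edgeR. For Thbs2, the value moved from -0.13 without library F1 to 0.12 without library F3.

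Comp, which encodes the cartilage oligomeric matrix protein, is a thrombospondin of cartilage, tendon and disc that binds collagens. It was at 75.5, 58.0 and 71.5 CPM in T1 to T3 and at 67.5, 61.5 and 60.3 CPM in F1 to F3. The TBHP group held both the highest and the lowest library. The log2 fold change was -0.11 (95% interval -0.36 to 0.13, adjusted p = 0.719 by edgeR), and it lay between -0.22 and -0.03 with 1 library left out at a time.

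Sparc encodes osteonectin, a collagen-binding protein of bone and remodelling tissue. It was at 11758, 10857 and 10783 CPM in T1 to T3 and at 11671, 10742 and 9713 CPM in F1 to F3. It had the smallest spread within groups of the 10 genes, with an SD of 0.11 on the log2 scale, against a median of 0.13 over the 7823 genes with at least 10 CPM. The difference between the groups was -0.06 in log2 (95% interval -0.29 to 0.17, adjusted p = 0.857 by edgeR).

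Osteopontin, encoded by Spp1, is a phosphorylated ligand of integrins and CD44 found in bone matrix and at sites of inflammation. Spp1 was at 5442, 6047 and 7111 CPM in T1 to T3 and at 5569, 6327 and 8678 CPM in F1 to F3. Library F3 was the highest of all, and the other libraries of both groups were interleaved. The log2 fold change was 0.15 (95% interval -0.20 to 0.49, adjusted p = 0.752 by edgeR). Without library F3 it was -0.05, and with the library labelled FGF21 alone it was -0.15. Among the genes with at least 10 CPM, the spread of Spp1 within groups (SD 0.27 on the log2 scale) was wider than that of 92.8%.

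The library with the most Spp1 had the least Fn1, Thbs1, Thbs2, Sparc and Fbn1. For every 100 reads of Fn1, a ratio that does not depend on depth or scaling, T1, T2 and T3 had 18.2, 21.7 and 19.6 reads of Spp1. F1, F2 and F3 had 15.7, 19.2 and 32.1. Libraries F1 and F3 thus lay below and above all TBHP libraries in this ratio. The treatment label of F3 names FGF23. Library T3 was the highest library for Fn1, Tnc, Postn, Thbs1 and Fbn1.

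Tenascin-C, encoded by Tnc, is induced in injured and mechanically loaded tissue. Tnc was at 938.0, 1010 and 1204 CPM in T1 to T3 and at 1024, 1082 and 939.0 CPM in F1 to F3. The lowest library of each group was at nearly the same level. The log2 fold change was -0.05 (95% interval -0.29 to 0.19, adjusted p = 0.888 by edgeR).

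Fibrillin-1, encoded by Fbn1, forms the microfibrils on which elastin is deposited. Fbn1 was at 404.2, 435.8 and 517.9 CPM in T1 to T3 and at 377.4, 468.3 and 347.8 CPM in F1 to F3. Libraries F1 and F3 were below every TBHP library, and F2 was above 2 of them. The means were 452.6 ± 58.7 and 397.9 ± 62.8 CPM (SD, n = 3), a difference of -0.19 in log2 (standard error 0.13, 95% interval -0.47 to 0.09, adjusted p = 0.628 by edgeR). Without library F2 it was -0.31 (unadjusted p = 0.0152, adjusted p = 0.109 by edgeR), and without library T3 it was -0.07. In the fit without F2, 2732 of 11559 genes had an unadjusted p under 0.05.

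Elastin, encoded by Eln, is the extensible core of elastic fibres. Its reads numbered 8, 17 and 9 in the TBHP group and 17, 5 and 15 in the TBHP+FGF21 group, or 0.42 to 0.77 and 0.24 to 0.81 CPM. At this depth, counting error alone was between 24.3% and 44.7% of a value, close to the coefficients of variation of 35.6% and 51.8% between replicates. The interval of its log2 fold change ran from -0.98 to 1.07 around 0.04, so a 2-fold difference in either direction was near the limit of what could be seen. In the same table, Col1a2, whose product pairs with that of Col1a1 in collagen I, stood at 0.54 CPM while Col1a1 was at 39928 CPM in the TBHP group. Whether the gene models behind such rows affect the Eln counts was not tested.

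**Figure D3:**
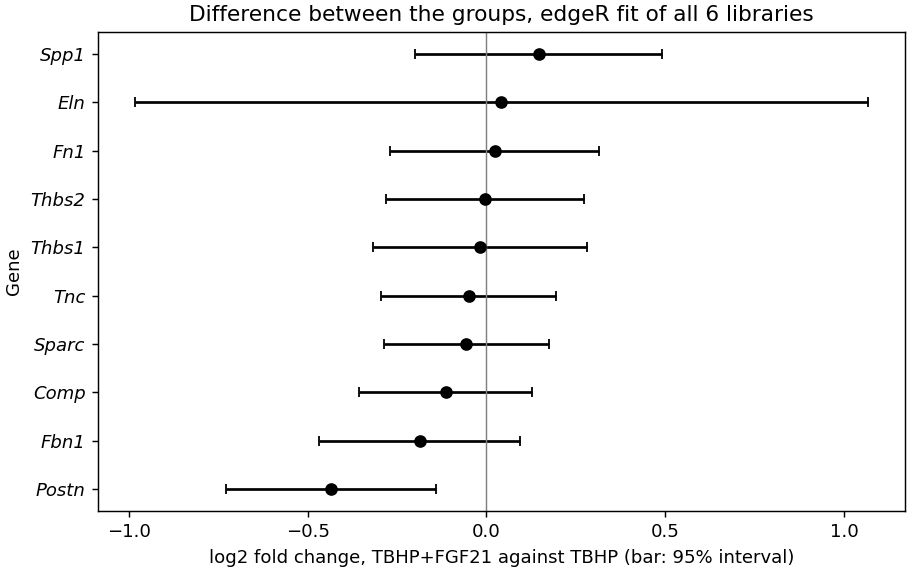
log2 fold change of TBHP+FGF21 against TBHP (horizontal axis) for each gene (vertical axis) from edgeR's fit of all 6 libraries, with 95% intervals as bars. The interval lies wholly below 0 for Postn (-0.73 to -0.14), it includes 0 for the other 9 genes, and it is widest for Eln.

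**Figure D4:**
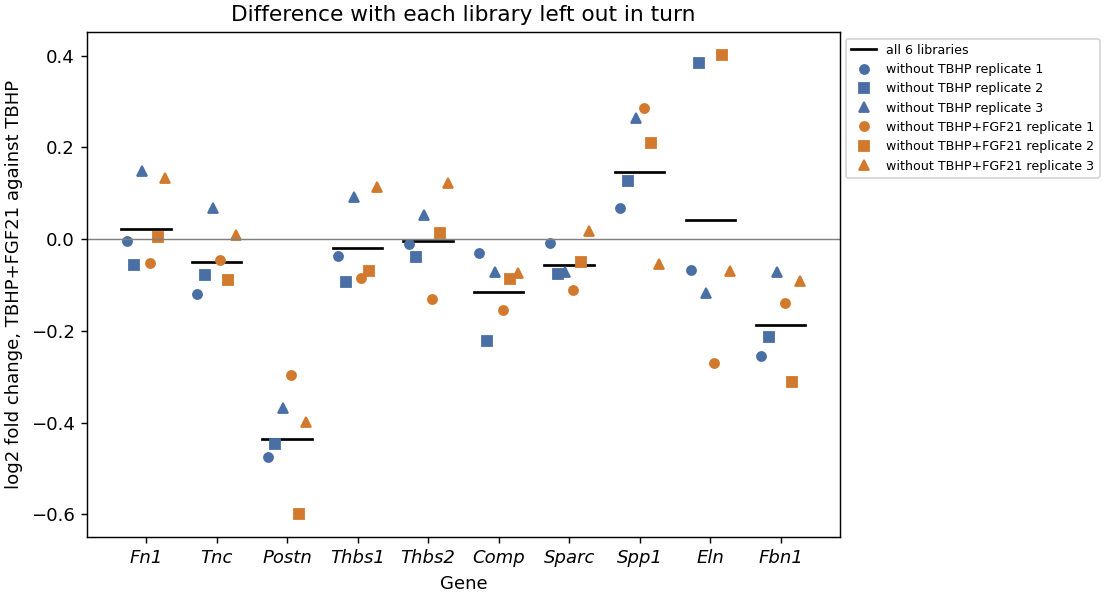
log2 fold change of TBHP+FGF21 against TBHP (vertical axis) for each gene (horizontal axis) with each library left out in turn, blue for a TBHP and orange for a TBHP+FGF21 library, beside the fit of all 6 libraries (black line). Postn, Comp and Fbn1 stay below 0 in all 6 fits, and the other genes have values on both sides of 0.

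The sign of the log2 fold change was the same in all 6 fits that each left out 1 library for Postn, Comp and Fbn1, which were negative throughout. It changed with at least 1 library for Fn1, Tnc, Thbs1, Thbs2, Sparc, Spp1 and Eln. Postn had the largest difference of the 10 genes in the fit of all 6 libraries, and for the abundant Fn1, Thbs1, Sparc, Spp1 and Thbs2 the intervals left room for differences of at most 0.32, 0.49 in the case of Spp1.

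Genes that act with these proteins were taken from 5 lists with 92 genes in all, of which 73 were tested. Of these, 0 passed an adjusted p of 0.05 by edgeR, and 9 had an unadjusted p under 0.05, as did 8.92% of all genes tested, so the count is near the background. Among 16 other matricellular genes tested, Tgfbi and Dmp1 were higher and Ccn3 and Ccn5 lower at that limit, with a median log2 fold change of -0.02. Tgfbi, which encodes a relative of periostin that binds collagens and integrins, was at 1554 ± 77.6 CPM under TBHP and 1998 ± 496 CPM under TBHP+FGF21 (0.36 in log2, adjusted p = 0.553 by edgeR). Ccn3 and Ccn5, members of the CCN family of matricellular regulators, were at -0.37 and -0.41 in log2. Dmp1, a mineral-associated relative of Spp1, was at 0.89 in log2 but below 3 CPM in every library. Without F3, the values were 0.32 for Dmp1, 0.17 for Tgfbi and -0.21 for Ccn5.

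Among 18 other elastic fibre and microfibril genes tested, Fbln2 was lower and none was higher at an unadjusted p under 0.05, and the median was 0.06. Fbln2, which encodes fibulin-2, a partner of fibronectin and fibrillin-1, was at 884.2, 778.6 and 894.3 CPM in T1 to T3 and at 379.0, 883.2 and 253.6 CPM in F1 to F3. Libraries F1 and F3 were below every TBHP library by more than 2-fold, and F2 was within the TBHP range. In log2 it differed by -0.75 (standard error 0.33, adjusted p = 0.553 by edgeR), whereas without library F2 it was -1.42 (adjusted p = 2.38e-05 by edgeR). Without library F3, it was -0.43.

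Of the 15 enzymes and chaperones that process or crosslink these proteins, all were tested, with a median of 0.06. Loxl1, a lysyl oxidase that crosslinks elastin, was at 97.2, 76.6 and 88.3 CPM in T1 to T3 and at 126.7, 88.5 and 147.3 CPM in F1 to F3 (0.47 in log2, adjusted p = 0.553 by edgeR), and at 0.31 in log2 without F3. Among 14 receptor genes tested, Itgb5, a partner of the alpha-v integrin, was at 1100 ± 70.2 CPM and 1320 ± 182 CPM (0.26 in log2), and its groups did not overlap, as for 4.90% of all genes in the upward direction. Without F3 it was at 0.16. Cd44, a receptor for osteopontin, was at -0.0011 in log2, and Cd36 and Itga9 had 0 counts in all libraries. Of 10 genes for TGF-beta ligands, receptors and Smads, the receptors Tgfbr2 (0.26) and Tgfbr3 (0.38) were higher at an unadjusted p under 0.05, and Tgfbr3 was at 0.22 without F3. Without library F2, 5 of these 9 genes, namely Ccn5, Tgfbi, Fbln2, Loxl1 and Tgfbr3, had an adjusted p under 0.05 by edgeR, in the fit where 7.50% of all genes passed. The 9 genes had been picked by their p in a fit that shares these libraries, so this count is a description.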

How the data were processed

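Sequenced RNA came from 6 libraries of rat NPCs, which were grouped by title into TBHP (n = 3) and TBHP+FGF21 (n = 3). The authors deposited a combined table of raw counts per gene symbol without normalization, handled here in the class of expected counts because 22 rows hold values that are not whole, which were rounded up. They also deposited whole counts per Ensembl identifier, 1 file a library, in an unstranded and 2 strand columns. STAR and featureCounts are named in the submitters' processing notes. Versions, genome build and annotation are not given in the sources used here. The kit is directional, yet the first strand column held 49.4% to 49.6% of the stranded counts, so overlapping antisense transcripts cannot be told apart. Identifiers were linked to symbols by identical counts (13204 linked, all 10 members among them).

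edgeR 4.0.16 (R 4.3.3) was run on the combined counts with TMM, filterByExpr (minimum count 10, total 15), the condition as sole term, and its quasi-likelihood functions, adjusting p by Benjamini-Hochberg across 11426 genes. A standard error was obtained from the fold change and its F statistic. The study's methods name no model for these libraries. Alternatives used the per-sample counts, DESeq2 1.42.0 (its size factors and its Wald test), limma-voom (limma 3.58.1), other filters, the replicate number as a block, and leaving out libraries. The fits were tested on simulated counts, where edgeR, limma-voom and DESeq2 all made more false calls than the threshold allows, DESeq2 the most. The members and lists were chosen with earlier results of these data known. All members were named, with the genes of the other lists at an unadjusted p under 0.05. Sirt1, Col1a1, Col1a2, Cd44, Cd36, Itga9 and the cell type markers given with values were named outside that rule, after their values were seen. Promoter sequences are from RefSeq (GRCr8), matched by symbol for 7 of 10 members, and no coordinates of the count files were used.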

Additional observations from a re-analysis of the deposited data

How the results depend on the processing

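Under other settings, 137 log2 fold changes of the 10 genes kept their side of an adjusted p of 0.05 and 2 did not, both for Postn, without library F2 and with the library labelled FGF21 alone. Genes past an adjusted p of 0.05 numbered 1 in edgeR's fit, 0 with the per-sample counts (1082 at an unadjusted p under 0.05), 0 with limma-voom (996), 4 with DESeq2's Wald test, 5 without a filter, and 325 with the library labelled FGF21 alone. Their number lay between 0 and 867 when each library was left out, the highest without library F2 (2732 unadjusted). Fits with 0 had 337 to 1771 unadjusted. Except without F2 and with the library labelled FGF21 alone, at most 5 genes passed in a fit. The 137 unchanged sides thus say little about the members. The members with an unadjusted p under 0.05 numbered 1 to 2, as Fbn1 joined Postn without library F2. In that fit 2732 of all 11559 genes tested were under the same limit, so 2 of 10 members is not far from the background. Members without overlap also numbered 1 to 2, with Fbn1 added without library F2 and Comp without library T2. The share of all genes without overlap was not computed for these fits, and fewer libraries leave less room for overlap. Library totals without TMM factors, chosen after seeing the data, left 1.

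With the replicate block, 2 genes had an adjusted p under 0.05 and 1599 an unadjusted p under 0.05, against 1 and 1019. Postn was at -0.45 (adjusted p = 0.103 by edgeR). The deviations of same-numbered libraries from their group means correlated across genes at -0.12, 0.21 and 0.15, and not every library correlated best with its own number, so the numbers were not taken as pairs. The block changed no member's call. Eln was dropped by the filter of at least 1 CPM in 3 libraries. Depth limited Eln only.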

Other observations

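Rows for elastic fibre genes ranged widely in level. Mfap4 had 0 counts in all 6 libraries, and Fbn2 had at most 1 count in any library. Mfap2 averaged 1.00 ± 0.0997 CPM (SD, n = 3) under TBHP. In that group Ltbp2, a latent TGF-beta binding protein of microfibrils, was at 4638 CPM. Efemp2, Emilin1, Ltbp4, Fbln5 and Mfap5 were there at 449.7, 291.1, 128.1, 43.3 and 32.8 CPM. Whether gene models make the low rows low was not tested. These genes were chosen after their values were seen.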
